A study of Mus musculus with 9 samples.

Results

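Small leucine-rich proteoglycans (SLRPs) are secreted proteins of the extracellular matrix, and the 8 genes described here, Dcn, Bgn, Lum, Fmod, Ogn, Prelp, Aspn and Omd, were taken by gene symbol as a family, with earlier results of these data known. All 8 were found among the 17305 genes of the table, and 7 of them, all but Aspn, passed the filter on low counts together with 13059 genes in all. The data came from the livers of 9 male mice of the Balb/c strain, 8 weeks old by the labels, which formed 3 groups of 3 and gave 1 RNA library per liver. All 3 groups received CCl4, a hepatotoxin whose repeated injection leads to liver fibrosis, for 8 weeks, and all received AAV8, an adeno-associated virus that infects the liver, through the tail vein. The labels place the virus injection at week 4 of the CCl4 course, with a dose of 1e+12 pfu for each animal, and the methods of the study differ from the labels in both time and dose. The AAV8 of the NC + CCl4 group was the control virus (AAV8-NC). In the group called lnc-Helf-sh1# + CCl4 it carried the first shRNA against lnc-Helf, a long noncoding RNA (AAV8-shRNA-lncHELF1#), and in the group called lnc-Helf-sh2# + CCl4 the other (AAV8-shRNA-lncHELF2#). The groups are called NC, sh1# and sh2# below. A liver without CCl4 was not analysed here, so no value below says what CCl4 itself did, and lnc-Helf was not measured apart from other transcripts, so the labels were not checked against its level. Each library was taken as 1 mouse.

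SLRPs share a core of leucine-rich repeats through which they bind collagen fibrils, and they help to set how thick and how regularly spaced the fibrils become. Decorin and biglycan carry chondroitin or dermatan sulfate chains, and lumican and fibromodulin can carry keratan sulfate chains. Several members also bind signaling proteins: decorin and biglycan bind TGF-β, and soluble biglycan is a ligand of the toll-like receptors TLR2 and TLR4. In the liver they are made mainly by stellate cells and other fibroblasts and accumulate in fibrotic septa.

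The classes of the family are defined by a cluster of 4 cysteines that precedes the repeats, and the coding sequence of this cluster is shown because it places the 8 genes in their classes before their levels are compared. Cysteine codons are in capitals, and the sequences are read 5′ to 3′ on the coding strand from GENCODE M21 transcripts on GRCm38, a reference used for these sequences only. In Dcn (chr10:97483507-97483548, plus strand), Bgn (chrX:73490979-73491020, plus strand) and Aspn (chr13:49551865-49551906, plus strand), which are class I, 3, 1 and 6 other codons separate the cysteines.
Dcn: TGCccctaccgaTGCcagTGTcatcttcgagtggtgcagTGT
Bgn: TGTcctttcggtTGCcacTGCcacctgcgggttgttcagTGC
Aspn: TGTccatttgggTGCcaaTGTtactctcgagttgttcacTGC
In the 4 genes of class II, the last interval is 9 codons long. They are Lum (chr10:97568353-97568403, plus strand), Fmod (chr1:134040449-134040499, plus strand), Prelp (chr1:133915151-133915201, minus strand) and Omd (chr13:49589659-49589709, plus strand).
Lum: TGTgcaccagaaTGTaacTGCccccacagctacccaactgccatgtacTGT
Fmod: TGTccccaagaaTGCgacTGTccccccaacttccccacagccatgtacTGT
Prelp: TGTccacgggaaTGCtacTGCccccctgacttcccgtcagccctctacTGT
Omd: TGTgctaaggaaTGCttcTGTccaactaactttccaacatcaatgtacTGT
Ogn (chr13:49615566-49615604, plus strand), of class III, has intervals of 2, 1 and 6 codons.
Ogn: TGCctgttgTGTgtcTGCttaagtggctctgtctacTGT
Each cluster lies within 1 coding exon. In that annotation Dcn and Lum are neighbours on chromosome 10, Prelp and Fmod on chromosome 1, and Aspn, Omd and Ogn follow each other on chromosome 13, inside the span of Cenpp on the other strand. Exons of Aspn overlap an exon of Cenpp, and exons of Prelp overlap the antisense gene Gm15851. No source used here states whether the counting used strand, so reads of these overlapping exons cannot be assigned to 1 gene with certainty.

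Depth was similar across the libraries, with total expected counts (RSEM's estimates of reads per gene) of 14265875 to 16816431, and 6.81 to 12.4% of them came from Alb, the albumin gene of hepatocytes. Markers of hepatocytes were present in every group, and of 15 marker genes of hepatic stellate cells Hhip had no count in any NC or sh2# library, while the others had counts in every group. The libraries of a group were not alike for the SLRPs. NC replicate 3 had the highest level of its group for 6 of the 8 genes and the lowest for Omd, sh1# replicate 3 had the lowest level of its group for all 8, and sh2# replicate 1 had the highest of its group for 7 of the 8. Values without these libraries are therefore given where they move a result most. In RNA from whole liver, fewer cells of a type and less RNA per cell cannot be told apart.

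Dcn was the most abundant SLRP mRNA and Aspn the least. On the TPM scale, which corrects for transcript length and so allows genes to be compared, the levels in the NC livers were 366 ± 97.7 for Dcn (mean ± SD, n = 3 mice), 199 ± 64.6 for Bgn, 65.1 ± 25.0 for Lum and 32.7 ± 5.70 for Prelp. The order Dcn, Bgn, Lum, Prelp and then Fmod held in 9 of 9 libraries, and Dcn and Bgn were above 97.1% and 95.2% of the genes tested. Fmod (4.21 ± 2.87 TPM), Ogn (4.14 ± 1.38 TPM) and Omd (3.80 ± 1.22 TPM) overlapped in the NC livers and were not separated beyond their spread. Their order depended on the library, since Fmod was above Ogn in 6 of 9 libraries and Ogn above Omd in 1 of 9. Aspn, at 0.233 ± 0.145 TPM, was below Omd in 9 of 9.

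The summed level of the 8 mRNAs was 504, 635 and 885 TPM in NC replicates 1 to 3, 448, 438 and 351 TPM in the sh1# livers and 466, 334 and 306 TPM in the sh2# livers. Every shRNA library lay below every NC library on this sum in TPM. TPM carry no TMM factors, which scale library size for the CPM used below. These factors were 1.06 to 1.07 in NC and 0.882 to 1.01 in the shRNA libraries. Summed in CPM, sh2# replicate 1 was slightly above NC replicate 1, so the non-overlap of the sum held in TPM but not in CPM. For Bgn, sh2# replicate 1 was above NC replicate 1 on both scales (239 and 192 CPM, 168 and 144 TPM). The same was so for Lum (63.1 and 46.2 CPM, 52.3 and 40.8 TPM). Dcn and Bgn together made up 81.4 to 85.7% of the summed TPM in each library, so the sum describes these genes rather than the rarer members. Dcn alone made up 45.9 to 56.1%, with the lowest share in sh2# replicate 1.

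**Figure D1:**
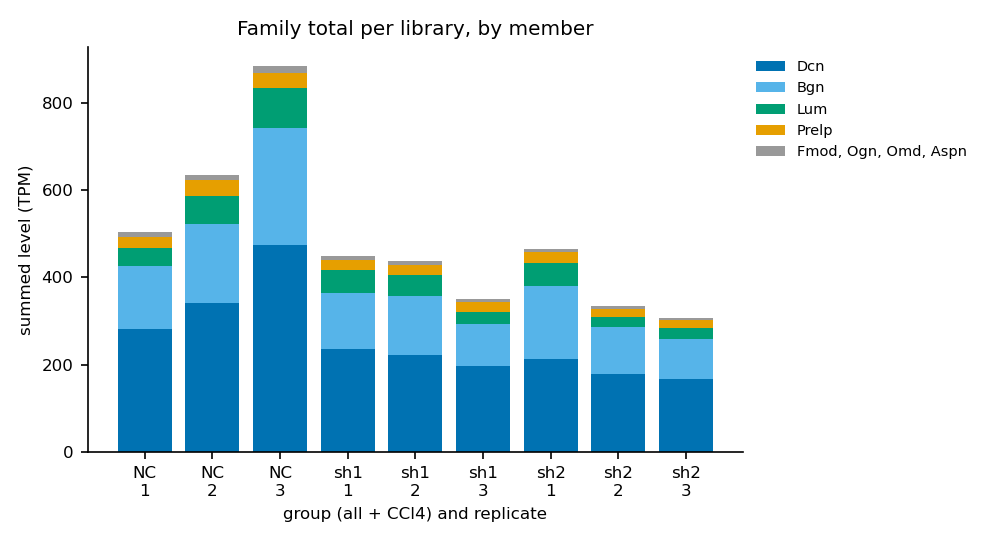
Stacked bars give the summed TPM of the 8 SLRP mRNAs in each of the 9 libraries, split by gene, with the axis starting at 0. The NC bars reach 504 to 885 TPM and the shRNA bars 306 to 466 TPM, and in every bar the segments of Dcn and Bgn take up 81.4 to 85.7%.

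The comparison of each shRNA group with NC asks whether SLRP mRNA differed between CCl4-treated livers with and without the shRNA. Dcn, whose product decorin binds collagen and TGF-β, fell in the sh2# livers and was the only one of the 7 genes tested that passed an adjusted p of 0.05 in edgeR. Its level was 287, 333 and 454 CPM (read counts scaled to a library of common size) in NC replicates 1 to 3, 263, 246 and 207 CPM in the sh1# livers and 230, 208 and 210 CPM in the sh2# livers. All 6 shRNA libraries were below all 3 NC libraries, and the sh1# and sh2# libraries overlapped. The mean level was 358 ± 86.5 CPM in NC, 239 ± 28.8 CPM with sh1# and 216 ± 12.2 CPM with sh2# (± SD, n = 3 mice each). The log2 fold change of Dcn with sh2# was -0.73 (standard error 0.18, adjusted p = 0.0392 from edgeR), which corresponds to 60.3% of the NC level. With sh1# it was -0.58 (standard error 0.17), or 66.7% of the NC level, with an adjusted p of 0.178 in edgeR and of 0.0479 in DESeq2, and without NC replicate 3 it was -0.38 (adjusted p = 0.438 from edgeR). The direct comparison of sh2# with sh1# gave -0.14 (95% interval -0.53 to 0.24, adjusted p = 0.791 from edgeR), so the passing of one shRNA and not the other does not show that they differed. An exact two-sided permutation test of 3 libraries against 3 cannot go below 0.1, and Dcn was at 0.1 for each shRNA.

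The Dcn call with sh2# depended on which libraries were in the fit. Leaving out sh2# replicate 1 kept it (log2 fold change -0.80, adjusted p = 0.0377 from edgeR), and 3 of the 7 SLRP genes (Dcn, Ogn and Prelp) then passed beside 12.5% of all genes in either direction. It was lost without NC replicate 1 (-0.87, adjusted p = 0.0698), NC replicate 2 (-0.78, adjusted p = 0.0731), NC replicate 3 (-0.52, adjusted p = 0.116), sh2# replicate 2 (-0.72, adjusted p = 0.115) or sh2# replicate 3 (-0.73, adjusted p = 0.0747), all from edgeR. The fold change stayed negative each time. Over all genes the share called with sh2# in these fits was lower too, at 0% without NC replicate 1, NC replicate 3 or sh2# replicate 2, 2.93% without NC replicate 2 and 2.47% without sh2# replicate 3.

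Read against all genes tested, 1 of 7 SLRP genes lower with sh2# stands beside 3.89% of genes called lower and 8.6% called in either direction. With sh1#, 0 of 7 SLRP genes and 0% of all genes passed in edgeR, while 5 of the 7 (Bgn, Dcn, Fmod, Ogn and Prelp) were lower at an unadjusted p under 0.05, as were 9.95% of all genes, and DESeq2 called 1 of the 7 (Dcn) beside 2.11% called lower of all. DESeq2 called 3 of the 7 lower with sh2# (Dcn, Ogn and Prelp), beside 7.56% of all genes, and the same 3 were lower at an unadjusted p under 0.05 in edgeR, beside 14.9%. At a fold change above 2 in addition to the adjusted p, the threshold of the study, 0 of the 7 passed with sh2#, beside 2.21% of all genes. The median log2 fold change of the 7 genes was -0.57 with sh1# and -0.73 with sh2#, against 0.02 and 0.00 over all genes. Negative values were found for 6 of 7 with sh1# and 7 of 7 with sh2#, against 47.1% and 49.5% of all genes. Both comparisons share the NC livers, so these values are not independent of each other.

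**Figure D2:**
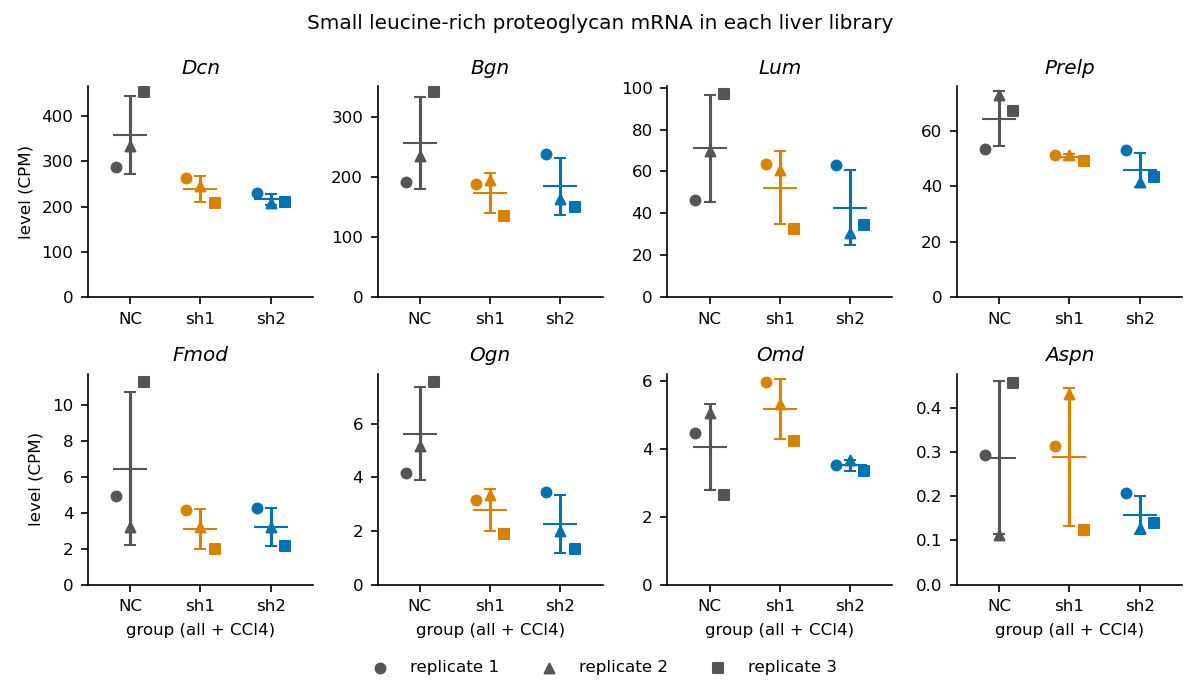
Each panel shows 1 SLRP gene, with its level in CPM on the vertical axis (starting at 0) and the NC, sh1# and sh2# groups, all with CCl4, on the horizontal axis. Symbols are the 3 mice of a group, long bars the mean and whiskers the SD. Dcn, Ogn and Prelp have every shRNA library below every NC library, Bgn, Lum and Fmod overlap, and Omd has its highest values with sh1#.

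Bgn, the second member of class I by level, encodes biglycan. It was measured at 192, 235 and 342 CPM in the NC livers, 189, 195 and 136 CPM with sh1# and 239, 164 and 151 CPM with sh2#. The groups overlapped in both comparisons, since sh1# replicate 2 was above NC replicate 1 and sh2# replicate 1 was above NC replicates 1 and 2. For Bgn edgeR gave a log2 fold change of -0.57 with sh1# (standard error 0.25, adjusted p = 0.271) and of -0.48 with sh2# (standard error 0.25, adjusted p = 0.219). Without NC replicate 3 these values were -0.30 and -0.21, and without sh2# replicate 1 the sh2# value was -0.73 (adjusted p = 0.0796 from edgeR). Aspn, which encodes asporin, a class I member with a stretch of aspartates that usually carries no sugar chain, had counts of 5, 2 and 8 in the NC livers, 5, 7 and 2 with sh1# and 3, 2 and 2 with sh2#. A difference in Aspn was not detectable at this depth.

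Of the class II genes, Prelp separated the groups and Lum and Fmod did not. Prelp, whose product has a basic end that binds heparan sulfate and is thought to anchor basement membranes to collagen, was measured at 53.4, 72.9 and 67.0 CPM in the NC livers, 51.2, 51.1 and 49.1 CPM with sh1# and 53.0, 41.6 and 43.2 CPM with sh2#. All 6 shRNA libraries were below the lowest NC library, but sh2# replicate 1 was so by less than 1 CPM. The log2 fold change of Prelp with sh2# was -0.49 (standard error 0.14), with an adjusted p of 0.0522 in edgeR and of 0.0227 in DESeq2. With sh1# it was -0.35 (standard error 0.14, adjusted p = 0.226 from edgeR). Without NC replicate 3 the sh2# value was -0.46 (adjusted p = 0.148), and without sh2# replicate 1 it was -0.62 (adjusted p = 0.0265, both edgeR). For Prelp the highest NC library was replicate 2. Leaving it out gave -0.39 with sh2# (adjusted p = 0.144) and -0.25 with sh1# (adjusted p = 0.428, both edgeR).

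Lumican, the product of Lum, regulates fibril assembly in the cornea and other tissues. Lum was at 46.2, 69.6 and 97.2 CPM in the NC livers, 63.8, 60.8 and 32.3 CPM with sh1# and 63.1, 30.6 and 34.4 CPM with sh2#. Both shRNA groups overlapped with NC, as NC replicate 1 was below sh1# replicates 1 and 2 and sh2# replicate 1. Lum had a log2 fold change of -0.44 with sh1# (standard error 0.35, adjusted p = 0.525) and of -0.73 with sh2# (standard error 0.36, adjusted p = 0.188, both edgeR). Without NC replicate 3 these values were -0.15 and -0.44, without sh1# replicate 3 the former was -0.19, and without sh2# replicate 1 the latter was -1.15 (adjusted p = 0.0587 from edgeR).

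Fmod encodes fibromodulin, which binds the same region of collagen as lumican and competes with it. It was at 4.93, 3.19 and 11.3 CPM in the NC livers, 4.14, 3.21 and 1.96 CPM with sh1# and 4.29, 3.22 and 2.15 CPM with sh2#. NC replicate 3 stood alone, and NC replicate 2 was below sh1# replicates 1 and 2 and sh2# replicates 1 and 2. In edgeR the log2 fold change of Fmod was -1.06 with sh1# (standard error 0.47, adjusted p = 0.271) and -1.01 with sh2# (standard error 0.47, adjusted p = 0.172). Without NC replicate 3 it was -0.39 and -0.33, so much of the Fmod value came from 1 library.

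Omd, which encodes osteomodulin (osteoadherin), a keratan sulfate proteoglycan known from bone, did not follow the other members. Its level was 4.46, 5.04 and 2.63 CPM in the NC livers, 5.96, 5.31 and 4.23 CPM with sh1# and 3.53, 3.67 and 3.33 CPM with sh2#. The NC libraries spanned the values of sh2# and overlapped with those of sh1#, whereas all 3 sh2# libraries were below all 3 sh1# libraries. Against NC, Omd had a log2 fold change of 0.35 with sh1# (standard error 0.25, adjusted p = 0.482) and of -0.20 with sh2# (standard error 0.26, adjusted p = 0.614, both edgeR). Without NC replicate 3, the lowest NC library for Omd, these values were 0.12 and -0.44. The test of sh2# against sh1# gave -0.56 (95% interval -1.13 to 0.02, adjusted p = 0.482 from edgeR), which did not pass. Non-overlap with sh2# lower than sh1# was found for 1 of the 7 SLRP genes and for 7.14% of all genes.

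Ogn, the only class III member here, encodes osteoglycin (mimecan), which takes part in collagen fibril growth. It was measured at 4.17, 5.15 and 7.54 CPM in the NC livers, 3.13, 3.33 and 1.90 CPM with sh1# and 3.46, 1.99 and 1.32 CPM with sh2#, on counts of 19 to 132 per library. Every shRNA library was below every NC library. The log2 fold change of Ogn with sh2# was -1.31 (standard error 0.38), or 40.2% of the NC level, with an adjusted p of 0.0557 in edgeR and of 0.0126 in DESeq2. With sh1# it was -1.01 (standard error 0.37, adjusted p = 0.208 from edgeR). Without NC replicate 3 the sh2# value was -1.04 (adjusted p = 0.175 from edgeR), and without sh2# replicate 1 it was -1.78 (adjusted p = 0.0231 from edgeR). Ogn follows Omd on chromosome 13, yet Ogn had all 3 sh1# libraries below NC and Omd had none below the lowest NC library.

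In both comparisons with NC, 3 of the 7 genes (Dcn, Ogn and Prelp) had all shRNA libraries below all NC libraries. The same held for 12.9% of all genes tested with sh1# and for 16.1% with sh2#.

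**Figure D3:**
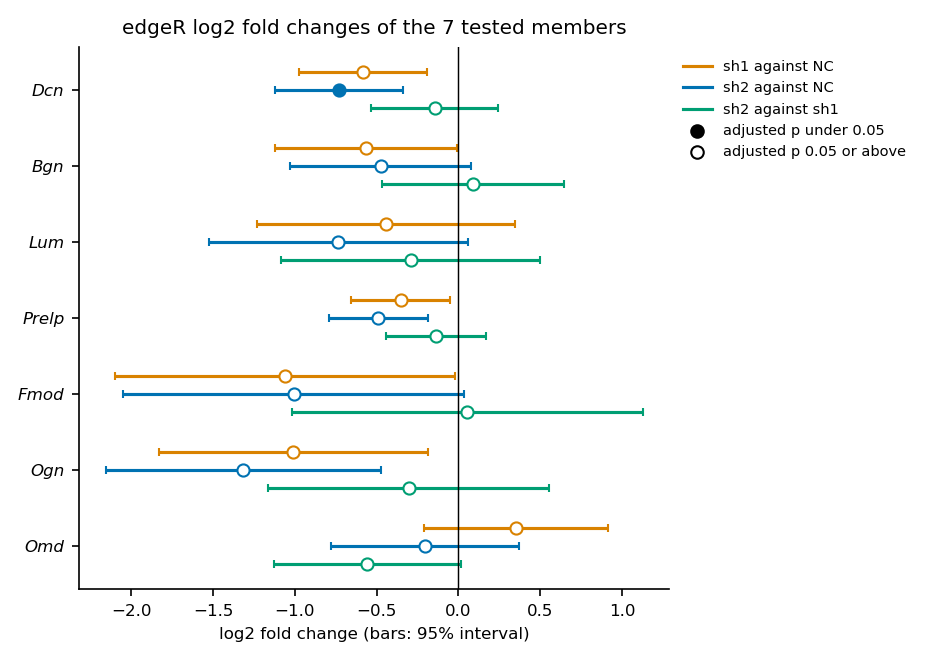
Points are edgeR log2 fold changes of the 7 tested SLRP genes and bars their 95% intervals, for sh1# against NC, sh2# against NC and sh2# against sh1#, and filled points have an adjusted p under 0.05. The filled point is Dcn with sh2# at -0.73, the values against NC are negative for all genes but Omd with sh1# (0.35), and the intervals of sh2# against sh1# all include 0.

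The mean of both shRNA groups was also set against NC, a comparison of 6 libraries with 3 that reuses the libraries above. Dcn passed (log2 fold change -0.66, standard error 0.15, adjusted p = 0.0409 from edgeR), which was 1 of the 7 genes beside 3.51% of all genes called lower. In DESeq2 Dcn, Ogn and Prelp passed, 3 of the 7 beside 7.02% of all genes, and at an unadjusted p under 0.05 in edgeR 5 of the 7 were lower, beside 15% of all genes. The same 3 genes had all 6 shRNA libraries below all 3 NC libraries, as had 7.15% of all genes. Ogn (-1.16, adjusted p = 0.0530) and Prelp (-0.42, adjusted p = 0.0559) were just outside the threshold in edgeR, as were their counterparts with sh2# alone. For Dcn and Prelp the exact two-sided permutation test of the mean log2 CPM gave p = 0.0119, the smallest p that its 84 splits allow, and for Ogn 0.0238. Bgn (-0.52, adjusted p = 0.136), Fmod (-1.03, adjusted p = 0.116), Lum (-0.59, adjusted p = 0.218) and Omd (0.07, adjusted p = 0.851) did not pass in edgeR. The Dcn call held without sh1# replicate 3 (adjusted p = 0.0382) and without sh2# replicate 1 (adjusted p = 0.0301), and was lost without any 1 of the other 7 libraries, with adjusted p from 0.0557 without sh2# replicate 3 to 0.160 without NC replicate 3 (edgeR). No SLRP gene passed in the comparison of sh2# with sh1# in edgeR (0 of 7, beside 0% of all genes) or in DESeq2 (0 of the 4 that had an adjusted p, beside 0.915% of all genes with one), and Fmod, Ogn and Omd had no DESeq2 adjusted p in it. There, at an unadjusted p under 0.05 in edgeR, 0 of 7 passed, beside 10.5% of all genes.

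The genes whose level followed the SLRPs most closely over the 9 libraries were sought among 9728 tested genes with a mean of at least 5 CPM, by Pearson correlation with the mean standardized log2 CPM of the 7 tested members. Among the 8 highest were Tmem131l, Lamb1 (a laminin chain of basement membranes), Lhfp, Resf1, Itgb5 (the integrin β5 chain), Cnst and Fstl1 (a secreted follistatin-like glycoprotein). The r of these 7 was between 0.98 for Tmem131l and 0.94 for Fstl1, and their Spearman's rho between 0.78 and 0.95. The points share the libraries and the group differences, the genes were picked for this likeness, and the values are a description of these 9 livers only. Within the family the r with that mean was 0.82 to 0.98 for 6 of the members and 0.01 for Omd, and each of the 7 is part of the mean. Against the mean of the other members the r was 0.74 to 0.97 for these 6 and -0.17 for Omd.

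Other genes of SLRP biology were taken by list, and their counts stand beside the shares of all genes: in edgeR 3.89% were called lower and 8.6% in either direction with sh2#, and 0% with sh1#. Of the 20 genes of collagen fibrils and their partners, 0 passed with sh1# and 0 with sh2#, and the median log2 fold change was -0.76 and -0.59. All 20 values were negative with sh1# and 18 with sh2#, beside 47.1% and 49.5% of all genes, and in DESeq2 3 and 7 of the 20 were called lower, beside 2.11% and 7.56%. The main fibril collagens did not pass for either shRNA: Col1a1 had -0.74 with sh1# and -0.03 with sh2#, and Col3a1 had -0.65 and -0.56 (edgeR adjusted p between 0.317 and 0.972). In the mean of both shRNA groups 3 of the 20 were lower than in NC in edgeR, beside 3.51% of all genes. Col6a1, a chain of the beaded-filament collagen VI that decorin and biglycan bind, was at 63.9, 54.7 and 122 CPM in NC, 43.6, 41.3 and 23.8 CPM with sh1# and 43.0, 38.7 and 40.1 CPM with sh2#, so the NC and shRNA libraries did not overlap. Its log2 fold change was -1.06 (adjusted p = 0.0436), that of Col6a2 was -1.12 (adjusted p = 0.0441) and that of Loxl1, a lysyl oxidase-like enzyme of elastic fibres, was -1.24 (adjusted p = 0.0488, all edgeR). NC replicate 3 was the highest library for each of these genes, as it was for Dcn. Without it the values were -0.63 for Col6a1, -0.65 for Col6a2 and -0.74 for Loxl1, and the calls were lost (adjusted p from 0.169 to 0.206 in edgeR), as they were without NC replicate 1, sh1# replicate 1, sh1# replicate 2, sh2# replicate 2 or sh2# replicate 3.

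The list of glycosaminoglycan chain synthesis held 25 tested genes, most of which build the sugar chains of these core proteins. It also held Tpst1 and Tpst2, which sulfate protein tyrosines instead. Of the 25 genes, 3 fell with sh2# (beside 3.89% of all genes), 0 rose, and 0 passed with sh1#. The median log2 fold change was -0.33 for each shRNA. The genes that fell were Ust, a sulfotransferase of uronic acids in dermatan and chondroitin sulfate (-1.18, adjusted p = 0.0354), Dsel, an epimerase that turns chondroitin into dermatan sulfate (-1.27, adjusted p = 0.0411), and Chpf2, a chondroitin-polymerizing factor (-0.52, adjusted p = 0.0491, all edgeR). Ust was at 2.82, 3.30 and 4.29 CPM in NC and at 1.66, 1.48 and 1.46 CPM with sh2#, and all 3 genes had every sh2# library below every NC library, as had 16.1% of all genes.

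Of 31 tested ligands and receptors that SLRPs bind, 4 fell with sh2# (beside 3.89% of all genes), 0 rose, and 0 passed with sh1#, with median log2 fold changes of -0.31 with sh1# and -0.39 with sh2#. Tlr4, a receptor of soluble biglycan, was at 14.5, 12.7 and 14.3 CPM in NC, 7.46, 10.5 and 11.7 CPM with sh1# and 6.58, 5.40 and 7.42 CPM with sh2#. All shRNA libraries were below NC for Tlr4, and the log2 fold change with sh2# was -1.10 (adjusted p = 0.0216 from edgeR). Cd44, the hyaluronan receptor and a co-receptor of biglycan, had -1.13 (adjusted p = 0.0309), P2rx7, an ATP-gated channel through which biglycan can act on the inflammasome, had -1.03 (adjusted p = 0.0367) and Tgfb1, a ligand bound by decorin, had -0.65 (adjusted p = 0.0481, all edgeR).

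Of 17 tested proteases that cleave SLRPs and their inhibitors, 2 fell with sh2# (beside 3.89% of all genes), 0 rose, and 0 passed with sh1#, with medians of -0.47 with sh1# and -0.67 with sh2#. They were the gelatinases Mmp9 (-1.37, adjusted p = 0.0460) and Mmp2 (-1.05, adjusted p = 0.0483, both edgeR). Timp2, an inhibitor of Mmp2, was lower in the mean of both shRNA groups than in NC (-0.99, adjusted p = 0.0451 from edgeR), with NC replicate 3 again the highest library at 133 CPM, and without it had -0.63 (adjusted p = 0.181 from edgeR). Without NC replicate 1, NC replicate 3 or sh2# replicate 2, none of the list genes named as falling with sh2# passed, as was so for all genes. Chpf2, Mmp2 and Mmp9 passed with sh2# in no fit that left 1 library out. Ust, Dsel, Cd44, P2rx7 and Tgfb1 passed only without sh2# replicate 1. Tlr4 passed without sh2# replicate 1, without NC replicate 2 and without sh2# replicate 3. Of the SLRP genes outside the 8, 4 of 8 in the table passed the filter on low counts and 0 were called, and the smallest adjusted p with sh2# were 0.117 for Chadl (1.03) and 0.122 for Podn, which encodes podocan (-1.07, both edgeR).

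**Figure D4:**
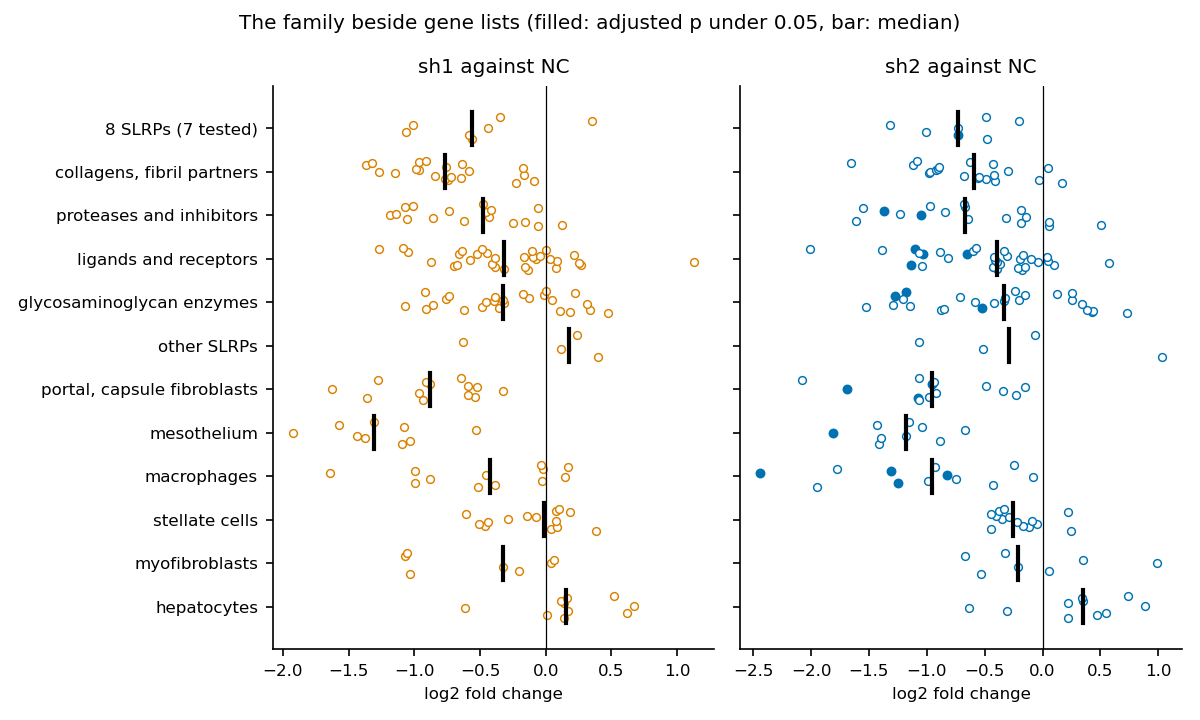
Each point is the log2 fold change of 1 gene and each bar the median of its list, for sh1# (left) and sh2# (right) against NC, with filled points at an adjusted p under 0.05 in edgeR. The 7 SLRP genes have medians of -0.57 and -0.73, the mesothelium list -1.31 and -1.18, the portal and capsule fibroblast list -0.88 and -0.96, and the stellate cell list -0.01 and -0.26.

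Markers of the cell types that make SLRPs did not move alike. Of 14 tested stellate cell markers 0 passed in either comparison, with medians of -0.01 and -0.26 and summed levels of 216 to 335 CPM in NC, 209 to 321 CPM with sh1# and 217 to 385 CPM with sh2#. Of 7 tested myofibroblast markers 0 passed, with medians of -0.32 with sh1# and -0.21 with sh2#. Their summed levels were 301 to 453 CPM in NC, 198 to 489 CPM with sh1# and 404 to 1302 CPM with sh2#. The middle library of each group was at 408, 458 and 413 CPM. Spp1 is on this list and on that of cholangiocytes, so these sums do not describe myofibroblasts alone. The sums of the cholangiocyte list were close to them, at 278 to 431 CPM in NC, 193 to 464 CPM with sh1# and 390 to 1262 CPM with sh2#. Of 13 tested markers of portal and capsule fibroblasts, all 13 had negative values with each shRNA (beside 47.1% of all genes with sh1# and 49.5% with sh2#), and 3 fell with sh2# (beside 3.89% of all genes): Fbln1 (-1.69, adjusted p = 0.0435), Pdgfra (-0.96, adjusted p = 0.0432) and Clec3b (-1.07, adjusted p = 0.0481, all edgeR). Their summed level was 178 to 304 CPM in NC, 138 to 151 CPM with sh1# and 139 to 210 CPM with sh2#, and Mfap5 had no count with sh1#. In fits that left 1 library out, Fbln1 and Clec3b passed with sh2# only without NC replicate 2 (adjusted p = 0.0421 and 0.0483, edgeR). Pdgfra passed with sh2# in none of these fits. Of 9 mesothelium markers, all 9 had negative values with each shRNA, beside 47.1% of all genes with sh1# and 49.5% with sh2#. Of these 9, Muc16 fell with sh2#, beside 3.89% of all genes (-1.81, adjusted p = 0.0452, and -1.12 without NC replicate 3, adjusted p = 0.134, both edgeR). Their summed level was 73.5 to 191 CPM in NC, 36.5 to 55.1 CPM with sh1# and 31.9 to 68.2 CPM with sh2#, with the highest value in NC. Of 12 macrophage markers 4 fell with sh2# (Csf1r, Lyz2, Ccr2 and Itgam), beside 3.89% of all genes. With 1 library left out, Ccr2 passed with sh2# only without sh2# replicate 1, and Itgam only without NC replicate 2 (edgeR). The summed level of the 12 markers was 1004 to 1475 CPM in NC, 587 to 1004 CPM with sh1# and 570 to 607 CPM with sh2#. None of the 10 hepatocyte markers passed in edgeR, with medians of 0.15 and 0.35, and of the tested markers of smooth muscle (6), sinusoidal endothelium (10) and cholangiocytes (7) 0 passed with either shRNA. With sh2# the summed levels of the mesothelium and macrophage markers did not overlap with NC, and those of the portal and capsule fibroblast markers did. With sh1# none of these sums overlapped with NC, but the macrophage sums nearly met (at most 1003.5 CPM with sh1#, at least 1004.2 CPM in NC). The part of these cell types in the SLRP values was not tested.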

How the data were processed

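RNA of 9 livers was sequenced on the BGIseq500 platform as single-end reads of 50 bases. The authors deposited RSEM expected counts, TPM and FPKM per gene and library. The expected counts deposited by the authors are raw estimates of reads per gene, and 8.15% of them have a fraction. The TPM values deposited by the authors are scaled to library size and transcript length, and the FPKM values deposited by the authors, scaled likewise, were not used. Per the submitters' processing notes the tools were BWA, Bowtie2 and RSEM, with no version given, and the build was hg19, a human one, although the gene numbers are those of mouse genes (17198 found in a RefSeq table). In 22 rows a symbol that had become a date was restored through its gene number.

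Rounded expected counts of all 9 libraries were fitted in R 4.3.3 with edgeR 4.0.16 (TMM factors 0.882 to 1.07, filterByExpr with its minimum count of 10, glmQLFit and glmQLFTest), with p-values adjusted by the Benjamini-Hochberg method over 13059 genes and calls at an adjusted p under 0.05. The biological coefficient of variation was 19.9%. Standard errors were the log2 fold change over the square root of F. CPM use the TMM-scaled library size. For log2 CPM in the permutation tests a pseudocount of 0.1 was added. The correlations used the log2 CPM of edgeR, which adds a prior count scaled to library size. P-values from edgeR set a group difference against the spread between mice, estimated from the 9 libraries of the fit, with 3 mice per group. The fit was tested on simulated counts with 200 changed genes.

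The members and gene lists were chosen with earlier results of these data known. All members were named, and of each pathway list up to 4 called genes with the smallest adjusted p, or 2 where fewer passed, and the 8 genes of most similar pattern, of which 1 is not reported here. Col1a1, Col3a1 and the marker genes named were chosen after their values were seen. Alternatives were DESeq2 1.42.0, RLE factors, no filter, a block for the replicate number, a fit of only the groups compared, a fold change above 2, unadjusted p, limma-trend (limma 3.58.1) on log2 TPM with pseudocounts of 1 and 0.1, each library left out in turn and, chosen after seeing the data, no TMM factors and each library left out for the list genes called. No pair of libraries of the same group was a duplicate within sampling noise, and pairs across groups were not checked for this.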

Additional observations from a re-analysis of the deposited data

Results flagged for a closer look

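Omd was singled out because its libraries moved in opposite directions with the shRNAs: all 3 sh1# + CCl4 libraries were above the mean of the NC + CCl4 libraries and all 3 sh2# + CCl4 libraries below it. The mean log2 CPM of Omd was different by -0.532 between sh2# and sh1# (sh2# minus sh1#), and the edgeR test of this difference gave an adjusted p of 0.482. Neither comparison with NC + CCl4 passed (adjusted p = 0.482 with sh1# and 0.614 with sh2#, edgeR). The pattern rests on NC replicate 3: without it the NC mean was 4.75 in place of 4.04 CPM, 2 of the 3 sh1# libraries were above it, and the log2 fold change with sh1# was 0.12. No cause was tested.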

How the results depend on the processing

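The count of SLRP genes called with sh2# + CCl4 against NC + CCl4, 1 in the edgeR fit, was 3 with DESeq2, with limma-trend on log2 TPM at either pseudocount, without TMM factors and at an unadjusted p, and in each of these the genes were Dcn, Ogn and Prelp. It was 0 in a fit of only the groups compared (Dcn adjusted p = 0.0634 from edgeR), with the fold change above 2, and with the replicate block. With 1 library left out it ranged from 0 to 3. For the mean of both shRNA groups the count of 1 was 3 with DESeq2, with limma-trend at either pseudocount and without TMM factors, 5 at an unadjusted p, 0 with the fold change above 2 and with the replicate block, and 0 to 3 with 1 library left out. With sh1# + CCl4 the count of 0 was 1 with DESeq2 and 5 at an unadjusted p. The count for sh2# against sh1# was 0 in every alternative run.

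Replicate numbers did not pair the libraries: deviations of same-numbered libraries had correlations of -0.42 to 0.20, and 1 of 9 libraries was most alike its own number. The replicate block gave 0 calls over all genes in every comparison, with Dcn at -0.72 with sh2# (adjusted p = 0.0857) and -0.65 for the mean of both shRNA groups (adjusted p = 0.0905, both edgeR).

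Of 406 alternative values of the 28 single-gene results, 357 kept their direction and their side of the threshold, 15 lost a call, 21 gained one and 13, in 3 results, turned their sign. These were small differences. Fmod in sh2# against sh1# was -0.0079 and -0.019 with limma-trend at pseudocounts of 1 and 0.1, and -0.21 (without sh2# replicate 1) to 0.32 with 1 library left out, where it was also negative without sh1# replicate 3 (-0.19). Bgn in the same comparison was -0.011 and -0.012 with limma-trend, and -0.14 (without sh2# replicate 1) to 0.22 with 1 library left out, with -0.060 without sh1# replicate 3. Omd for the mean of both shRNA groups was -0.066 and -0.077 with limma-trend, -0.16 (without NC replicate 3) to 0.27 with 1 library left out, -0.00099 without sh1# replicate 1 and -0.064 without TMM factors. Leaving out TMM factors moved the median of all genes to -0.11 with sh1#, -0.15 with sh2# and -0.13 for their mean, and the Dcn value with sh2# to -0.88. The causes were not tested. Depth limits Aspn, at 2 to 8 counts per library, and Ogn, Omd and Fmod, at 19 to 198.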
